A study of Mus musculus with 69 samples.

Results

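Open promoters of expressed genes were defined as stretches of accessible chromatin at the start sites of genes that were transcribed in wild-type (WT) mouse embryonic stem cells (ESCs). ATAC-seq, in which a transposase cuts and tags open DNA, had been run on 6 libraries, and the 6 peak lists merged into 89596 regions where peaks shared at least 1 bp. A region was kept when it lay within 500 bp of the transcription start site (TSS) of a protein-coding gene, on an autosome other than chromosome 11, had a peak in both WT lists, and its gene had a mean of at least 10 CPM (read counts scaled to the library total) in the 2 WT mRNA-seq libraries. This left 8160 regions at 7592 genes, out of 62202 regions with a peak in both WT lists and 13198 such regions at promoters of the same chromosomes. Presence in WT and the WT RNA level chose these promoters and are therefore given only as a description.

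The libraries came from J1 cells, an ESC line from the inner cell mass of 129S4/SvJae embryos (n = 2 for ATAC-seq and n = 2 for mRNA-seq), and from the clones Mut18 and Mut43 (n = 2 each per assay). In both clones CRISPR-Cas9 editing had changed lysine 27 of the histone variant H3.3 to arginine (H3.3K27R), in H3f3a and in H3f3b, so that this residue of H3.3 can no longer be acetylated. Each mutant line is 1 clone, so a difference of a line from WT cannot be told apart from a difference of that clone. Cells had been grown on feeder cells and passed without them before collection. RNA markers of ESCs were high in every library, with a summed level over 7 genes including Nanog and Sox2 of 2895 and 3000 CPM in WT and 3249 to 3410 CPM in the mutants. Of the 7, Pou5f1 was lower in the mutants, at a log2 fold change of -0.27 (adjusted p = 8.14e-07, edgeR). The summed level of 20 feeder fibroblast markers was 2109 and 1942 CPM in WT and 1433 to 1717 CPM in the mutants. Its largest part was Fn1, at 740 and 745 CPM in WT and 764 to 772 CPM in the mutants. Of the 18 markers tested, 7 were lower in the mutants beyond 2-fold, against 5.82% of all genes tested. Lum and Fap stood at 0 in some libraries.

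A promoter is the stretch around a start site where RNA polymerase II and its general factors assemble. At active genes it is kept free of nucleosomes over a short stretch, which ATAC-seq reads as a peak, and the nucleosomes on its flanks carry H3.3 and acetylated lysine 27 of H3 (H3K27ac). Acetylation of lysine 27 is written by Crebbp and Ep300, the CBP and p300 acetyltransferases, and it marks active promoters and enhancers alike. Many promoters of mammals, above all those of housekeeping genes, lie in CpG islands, stretches rich in G, C and the dinucleotide CG.

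The results turn on a few promoters, whose sequences follow because they represent the behaviours described here. Each run gives 300 bases read 5′ to 3′ along the gene's own strand, from 250 bases before the start site to 50 bases from it on, in GRCm38 (the build also called mm10). Capitals mark matches, on either strand, to any of 10 short motifs. These were the GC box (GGGCGG), the CCAAT box (CCAAT), the TATA box (TATAAA), the ETS site (CCGGAAGT), the NRF1 site (CGCATGCG), the YY1 site (AAGATGGCG), the CRE (TGACGTCA), the E-box (CACGTG), a ZNF143 site (ACTACAA) and the octamer (ATGCAAAT). No motif letters lie inside another motif of the set, and a capital run can join neighbouring matches.

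Uimc1 and Dennd5a lost rank in the mutant lists, and Atxn2 gained rank. Uimc1 lies at chr13:55100246-55100545, minus strand, Dennd5a at chr7:109960351-109960650, minus strand, and Atxn2 at chr5:121783657-121783956, plus strand.
Uimc1: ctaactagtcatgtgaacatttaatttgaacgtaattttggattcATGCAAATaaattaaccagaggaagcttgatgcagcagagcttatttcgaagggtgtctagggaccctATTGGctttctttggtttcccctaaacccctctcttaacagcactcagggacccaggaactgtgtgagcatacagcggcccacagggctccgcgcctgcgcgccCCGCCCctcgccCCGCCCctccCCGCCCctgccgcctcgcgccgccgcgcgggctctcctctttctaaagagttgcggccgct
Dennd5a: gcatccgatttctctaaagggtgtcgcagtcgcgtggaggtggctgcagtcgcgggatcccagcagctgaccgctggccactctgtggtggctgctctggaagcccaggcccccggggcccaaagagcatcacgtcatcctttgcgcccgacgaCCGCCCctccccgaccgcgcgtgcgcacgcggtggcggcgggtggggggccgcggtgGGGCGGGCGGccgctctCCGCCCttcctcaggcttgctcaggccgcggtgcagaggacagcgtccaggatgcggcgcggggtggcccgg
Atxn2: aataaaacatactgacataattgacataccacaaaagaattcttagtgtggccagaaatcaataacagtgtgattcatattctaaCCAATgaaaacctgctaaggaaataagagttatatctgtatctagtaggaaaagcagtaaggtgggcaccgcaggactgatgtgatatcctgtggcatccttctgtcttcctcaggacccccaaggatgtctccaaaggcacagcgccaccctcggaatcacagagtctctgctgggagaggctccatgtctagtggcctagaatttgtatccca

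Lrp6 and Utrn had a peak in both WT lists and in no mutant list. The Lrp6 window is chr6:134566864-134567163, minus strand, and that of Utrn is chr10:12826889-12827188, minus strand.
Lrp6: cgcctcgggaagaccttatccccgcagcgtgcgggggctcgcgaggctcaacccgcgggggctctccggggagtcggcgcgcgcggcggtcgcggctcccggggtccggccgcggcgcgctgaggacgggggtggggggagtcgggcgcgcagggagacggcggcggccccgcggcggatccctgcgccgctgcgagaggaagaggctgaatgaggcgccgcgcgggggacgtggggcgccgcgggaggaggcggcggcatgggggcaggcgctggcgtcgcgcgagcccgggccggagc
Utrn: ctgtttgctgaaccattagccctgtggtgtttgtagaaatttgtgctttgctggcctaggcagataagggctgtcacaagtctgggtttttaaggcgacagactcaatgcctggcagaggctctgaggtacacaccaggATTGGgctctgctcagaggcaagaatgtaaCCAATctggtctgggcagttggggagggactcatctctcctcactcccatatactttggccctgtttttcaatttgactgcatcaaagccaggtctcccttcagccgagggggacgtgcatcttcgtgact

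Golph3l was among the strongest promoters of all 6 lists, and Nanog, a core pluripotency gene, among the weakest. The Golph3l window is chr3:95588684-95588983, plus strand, and that of Nanog is chr6:122707239-122707538, plus strand.
Golph3l: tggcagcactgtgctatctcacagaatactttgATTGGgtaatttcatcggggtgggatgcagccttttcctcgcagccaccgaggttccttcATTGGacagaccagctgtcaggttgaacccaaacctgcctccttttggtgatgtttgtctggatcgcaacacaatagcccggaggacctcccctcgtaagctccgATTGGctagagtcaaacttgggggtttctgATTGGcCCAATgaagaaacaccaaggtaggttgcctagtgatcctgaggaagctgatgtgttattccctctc
Nanog: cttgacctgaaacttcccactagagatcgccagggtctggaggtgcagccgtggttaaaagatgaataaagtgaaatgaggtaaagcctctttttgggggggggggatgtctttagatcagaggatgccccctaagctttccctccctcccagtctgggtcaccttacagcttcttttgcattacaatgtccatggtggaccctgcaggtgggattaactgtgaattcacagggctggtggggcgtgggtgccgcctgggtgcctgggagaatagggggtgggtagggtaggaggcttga

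These windows differed widely in composition. Lrp6 held 54 CG dinucleotides at 81.3% G+C and Dennd5a held 35 at 73% G+C, whereas Nanog held 4 at 54.3%, Utrn 4 at 51.3% and Atxn2 3 at 44% G+C. The GC box was found 4 times in the Dennd5a window and 3 times in that of Uimc1, and the CCAAT box 5 times in that of Golph3l. No motif of the set was found in the Lrp6 or the Nanog window.

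Across the 8047 distinct start sites of the members that could be read, the median G+C content of the window was 63%, against 56% over 48275 start sites of protein-coding transcripts on the same chromosomes. The median ratio of observed to expected CG dinucleotides was 0.81 against 0.53, and 77.4% of member windows passed both 50% G+C and a ratio of 0.6, against 43.1%. The GC box was held by 70% of member windows and 43.3% of all windows, and the ETS site, bound by ETS-family activators, by 9.61% against 4.74%. For the NRF1 site the shares were 4.2% and 2.14%, for the YY1 site 3.98% and 1.83%, for the CRE 3.74% and 2.06%, for the E-box 11.1% and 7.35%, for the CCAAT box 38.1% and 35.6%, and for the ZNF143 site 4.23% and 3.66%. The TATA box was held by fewer member windows, 5.01% against 11.4%, and so was the octamer bound by Pou5f1, with 1.28% against 1.57%. These shares compare chosen with all start sites, open or not, and were not tested. Other open promoters shared part of this composition. Weakly expressed genes are those at 1 to 10 CPM, and silent genes those under 1 CPM. At region centres, the median G+C content was 66.7% for members, 65% for open promoters of weakly expressed genes and 63.7% for those of silent genes. Both limits were passed by 82.1%, 66.2% and 55.1% of these centres. For distal open regions the share was 10.4%.

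Composition also went with how strongly a promoter ranked. Windows of members in the top 20% of the WT lists held the CCAAT box in 50.2% and the ETS site in 15.1%, against 27.9% and 4.7% of windows of members ranked under the 20th percentile. The GC box was held by 67.6% and 70.2% of the same windows, a small difference in the other direction. Region width moved with the class of region, with a median of 764 bp for members, 693 bp for open promoters of weakly expressed genes, 623.5 bp for open promoters of silent genes and 391 bp for distal open regions. A region spans the merged peaks of all lists, so its width also depends on how many lists held a peak. The start site itself lay inside 91.5% of member regions, and 929 members, 11.4%, had start sites on both strands within 500 bp, against 1.82% at weakly expressed and 0.55% at silent genes. The highest RNA level among the genes near a region set its class. Regions with several genes were thus more likely to be members, which favours start sites on both strands there. Regions near a gene missing from the count table were left out of the weakly expressed and silent classes only.

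Most of these promoters kept a peak in the mutants. A peak was found for 7737 and 7928 of the 8160 members in Mut18 (94.8% and 97.2%) and for 7869 and 7769 in Mut43 (96.4% and 95.2%), a mean of 95.9% ± 1.08 (SD, n = 4 lists). All 4 mutant lists held 7549 members, or 92.5%. Another 231 were in 3 lists, 153 in 2, 108 in 1 and 119 (1.46%) in none.

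Other classes of region, chosen with the same WT rule, were lower in every mutant list. Open promoters of weakly expressed genes (1 to 10 CPM, 2865 regions) had a peak in 90.5% to 93.9% of cases, open promoters of silent genes (under 1 CPM, 1272 regions) in 88.5% to 92.5%, and distal open regions over 1000 bp from any start site (41574 regions) in 83.4% to 87.9%. The members exceeded distal regions by 9.22 to 11.4 percentage points in the 4 lists, silent promoters by 4.7 to 6.69 and weakly expressed promoters by 3 to 4.28. An exact sign-flip permutation test of these differences over the 4 lists, two-sided, gave p = 0.125 each time, the smallest that 4 lists allow, so the design cannot pass 0.05.

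**Figure D1:**
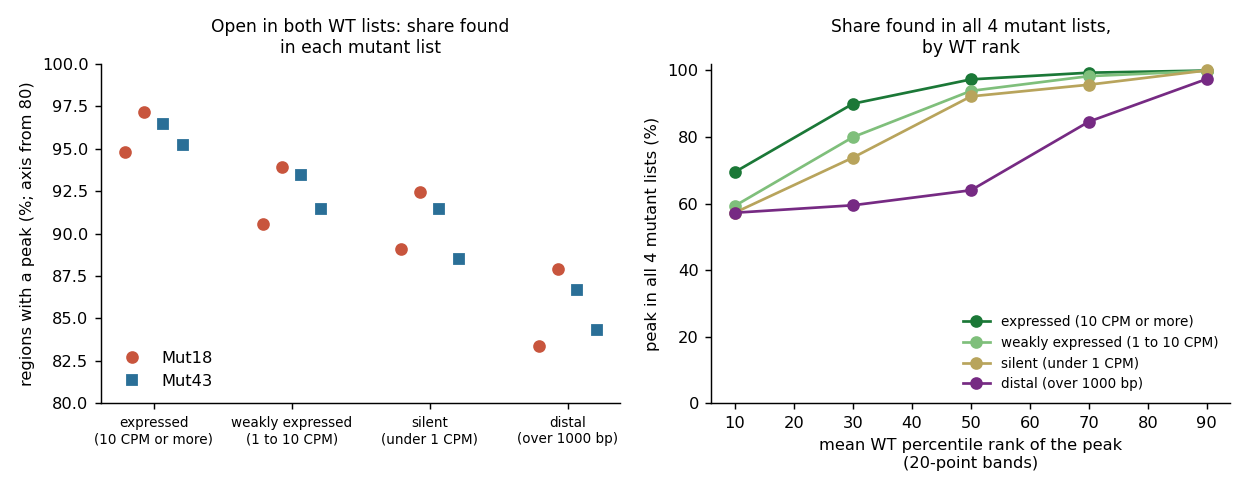
Left, share of regions with a peak in each mutant list (vertical axis, percent, from 80) for regions open in both WT lists, by class of region, with 1 mark per library. Right, share with a peak in all 4 mutant lists (percent) against the mean percentile rank in the WT lists, in bands of 20 points. The 4 marks of expressed genes lie between 94.8% and 97.2%, above those of every other class, and from the 40th percentile up 97.3% to 99.95% of them per band are in all 4 lists.

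Loss of a peak was a matter of weak promoters. Peaks were ranked within each list by their fold enrichment over background, the caller's measure of height, and the rank was written as a percentile, with 100 for the highest peak. Of the members that averaged under the 20th percentile in WT, 69.5% had a peak in all 4 mutant lists, and this share rose through 90%, 97.3% and 99.3% to 99.95% in the successive bands of 20 points. Only 1 of 2161 members in the top band missed a mutant list. Distal regions of the same WT rank were lower in every band, with 57.2%, 59.5%, 64%, 84.6% and 97.4%, and in the band from the 40th to the 60th percentile the members had 98.3% to 99% per mutant list against 75.9% to 82.1%. Fold enrichment at equal rank does not make regions alike in other respects, since distal regions were narrower.

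The share did not follow the RNA level. Members in all 4 mutant lists made up 90.8% of those at 10 to 20 CPM, 93.4% at 20 to 50 CPM, 92.4% at 50 to 100 CPM, 92.5% at 100 to 200 CPM, 94.5% at 200 to 500 CPM and 89.5% of the 257 at 500 CPM or more. Between chromosomes it ranged from 89.7% (chromosome 17) to 96.4% (chromosome 8).

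The choice on WT lists favours WT, and the size of the lists matters. With members chosen on the list of WT replicate 2 alone (8217 regions), the other WT list held 99.3% of them and the mutant lists 94.2% to 96.6%. Chosen on WT replicate 1 alone (8648 regions), 94.4% were in the other WT list and 90.6% to 93.2% in the mutant lists, so the held-out WT list was above all 4 mutant lists both times. When promoters were instead chosen on both lists of a clone, 97.1% (Mut18) and 97.2% (Mut43) of them were in all of the other 4 lists, and the WT lists held 98.9% to 99.7%.

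A pool that treats the lists alike, all 8676 promoter regions with a peak in any list and a mean of 10 CPM over all 6 RNA libraries, gave 98% and 93.1% in WT against 89.4% and 92.2% for Mut18 and 91.3% and 89.8% for Mut43. The mutants were lower by 4.86 percentage points on average, with no overlap (exact permutation test over samples, two-sided, p = 0.0667, the smallest that 2 against 4 samples allow). The lists had 78536 and 67416 peaks in WT and 63588 to 69811 in the mutants. Cutting every list to its 63588 highest peaks turned the difference to 3.72 percentage points higher in the mutants (exact permutation p = 0.4). When peaks had to cover 50% of a region the mutants were lower by 14.5 percentage points (exact permutation p = 0.0667). The sequencing depth of the ATAC-seq libraries was not used here. Of the pool, 7431 regions (85.7%) were in all 6 lists, 113 were in both WT lists and no mutant list, and 8 were in all 4 mutant lists and neither WT list.

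The 119 members without any mutant peak were mostly weak regions. Their median WT percentile was 7.44, 95 of them ranked under the 20th percentile and only 5 above the 40th. Their median width was 316 bp, against 785 bp for the members in all 4 mutant lists, and the start site lay inside 56.3% of them, against 93.8%. Regions span the merged peaks of all lists, and those without a mutant peak were merged from WT peaks only. This alone makes them narrower and less likely to hold the start site, so neither value is read as a trait of these promoters. In 77 of the 119 cases the same gene had another member region that was in all 4 mutant lists. The median G+C content of their windows was 68.7%, against 62.7% for members in all 4 mutant lists, and they held the CCAAT box in 26.1% and the ETS site in 2.52%, against 39.2% and 10.1%.

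The 5 strongest of them were at Utrn, Lrp6, Dnajc11, Map2 and Ddx25. Lrp6, a co-receptor of Wnt signals with a single member region, had a fold enrichment of 6.31 and 8.31 in the WT lists (percentiles 41.3 and 57.7), and its RNA was 79.8 and 66 CPM in WT against 77.1 and 83.5 CPM for Mut18 and 82.7 and 79 CPM for Mut43. The groups overlapped, and the log2 fold change of 0.18 (SE 0.06, adjusted p = 0.01, edgeR) was 0.06 without WT replicate 2 (adjusted p = 0.451) and missed the threshold with DESeq2 (adjusted p = 0.0565). Dnajc11, a mitochondrial chaperone of the DnaJ family, also had a single member region, with 7.44 and 7.09 in WT, and 187 and 196 CPM in WT against 166 to 175 CPM in the mutants. Its RNA was lower in all 4 mutant libraries by a small amount (log2 fold change -0.13, SE 0.04, adjusted p = 0.00688, edgeR quasi-likelihood test with Benjamini-Hochberg adjustment), which was -0.09 without WT replicate 2 (adjusted p = 0.184).

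Utrn, which encodes the dystrophin relative utrophin, had 5 member regions, of which the one missing from the mutants reached 7.11 and 9.82 in WT (percentiles 54.5 and 74.5). Its RNA was 212 and 201 CPM in WT and 176 to 185 CPM in the mutants, below WT in each library (log2 fold change -0.17, SE 0.04, adjusted p = 0.000932, edgeR). Map2, which encodes a neuronal microtubule-binding protein, had 2 member regions. The one missing from the mutants, 159 bp wide and 22 bp from the start site, had 5.97 and 7.53 in WT. RNA of Map2 changed most of the 5, from 18.8 and 19.6 CPM to 10 and 10.4 CPM in Mut18 and 7.39 and 5.38 CPM in Mut43 (log2 fold change -1.21, SE 0.1). The mutant mean of 8.3 CPM lay under the 10 CPM minimum set in WT. The choice of members thus favoured this fall, which is given as a description. Ddx25, a helicase known from germ cells, had 6.04 and 7.43 in WT, and its RNA overlapped between the groups, at 14.2 and 15.6 CPM in WT and 12.9 to 15.7 CPM in the mutants.

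**Figure D2:**
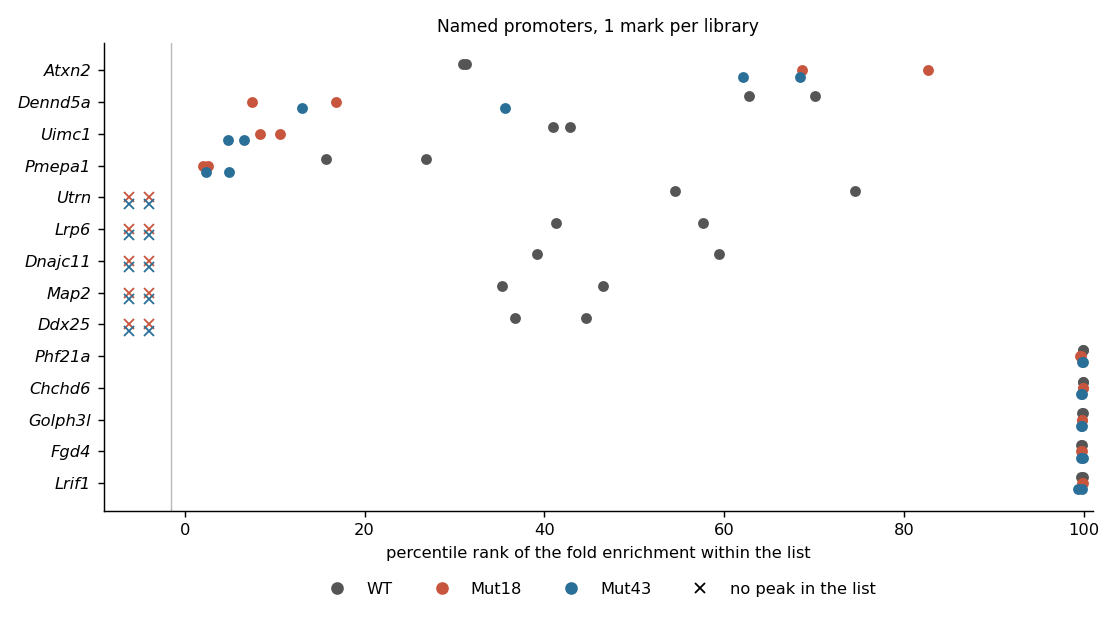
Percentile rank of the fold enrichment within each peak list (horizontal axis) for the promoters called by rank, the 5 strongest without a mutant peak and the 5 strongest in WT, with 1 mark per library coloured by line. Crosses left of the line stand for lists without a peak. The 5 promoters at the bottom lie above the 99th percentile in all 6 lists, and for Uimc1 the mutant libraries lie at 4.86 to 10.6 and the WT libraries at 41 and 42.9.

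The strongest promoters kept their height. Phf21a, part of a complex with the histone demethylase LSD1, had a region 465 bp from the nearest of its start sites, with a fold enrichment of 18.4 and 21.6 in WT against 17.4 and 17.9 for Mut18 and 21 and 19.5 for Mut43. Chchd6, a protein of the inner mitochondrial membrane, had 17.9 and 20 in WT and 17.5 to 19.5 in the mutants. Golph3l (a Golgi protein) had 17.3 and 19.5 in WT and 18.2 to 18.7 in the mutants, and the values of both groups overlapped for each of these. Fgd4, an exchange factor for the GTPase Cdc42, and Lrif1, a nuclear protein that binds HP1, completed the top 5, with 16.6 and 18.7 in WT and 17.8 to 19.1 in the mutants for Fgd4, and 17.8 in both WT lists and 16.7 to 20.8 in the mutants for Lrif1.

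Over the 7549 members with a peak in all 6 lists, the median fold enrichment was 7.83 and 8.67 in WT against 8.73 and 8.56 for Mut18 and 8.59 and 8.86 for Mut43. Fold enrichments of different lists are not on a common scale, so ranks were compared. The median percentile of these members was 64.7 and 62.2 in WT against 65 and 64.4 for Mut18 and 65.8 and 65.8 for Mut43. The difference of 1.8 points was not beyond what the libraries allow (exact permutation test over samples, two-sided, p = 0.133, smallest possible 0.0667). Ranked by the -log10 q of the peak instead, the median was 84.9 and 83.2 in WT and 81.9 to 83.2 in the mutants, 1.35 points lower in the mutants (p = 0.2 by the same exact test), so the direction depends on which column is ranked. With equal numbers of peaks per list the mutants were 4.37 points higher by fold enrichment, with no overlap (exact permutation p = 0.0667), so the size depends on the length of the lists.

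**Figure D3:**
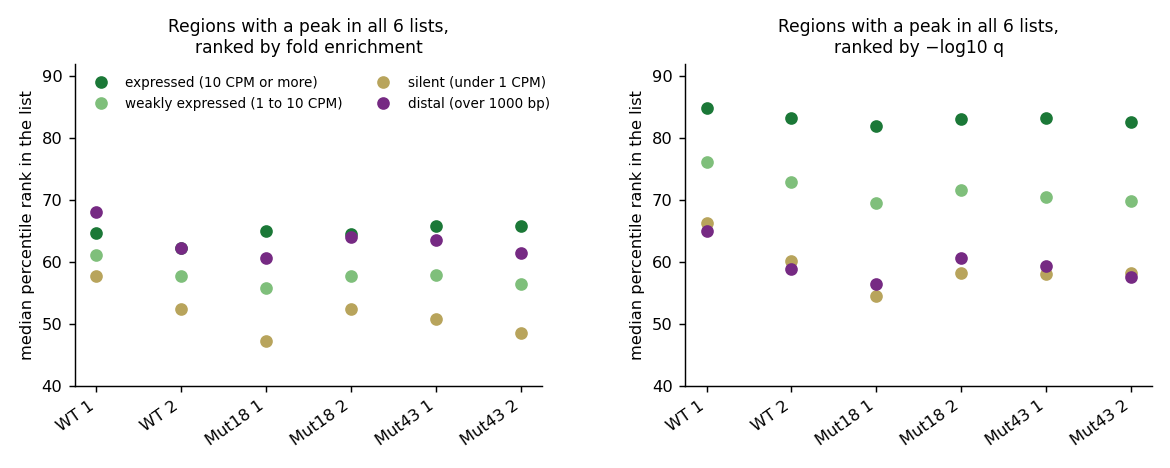
Median percentile rank in each of the 6 peak lists (vertical axis) for regions with a peak in all 6 lists, by class of region, ranked by fold enrichment on the left and by -log10 q on the right. Members lie at 62.2 to 65.8 by fold enrichment and at 81.9 to 84.9 by -log10 q, where WT and mutants overlap in both panels. By -log10 q the weakly expressed and silent classes lie lower in all 4 mutant lists (69.5 to 71.7 and 54.5 to 58.2) than in both WT lists (72.8 and 76.1, and 60.1 and 66.3).

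Ranks of single promoters were tight. Between libraries of the same line the Spearman correlation of percentile ranks over the 7549 members was 0.949 to 0.954, between the clones 0.946 to 0.953, and between WT and mutant libraries 0.925 to 0.941. The median shift of a promoter was 4.59 to 4.86 points within a line, 4.53 to 4.98 between the clones and 5.21 to 5.92 between WT and mutants. These are correlations across promoters, which are not independent replicates.

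For the test, percentile ranks were turned into normal scores, on which 1 unit is 1 SD of the ranks of a list, and compared with limma over all 48984 regions with a peak in all 6 lists. Between mutants and WT, 1 member rose and 3 fell of 7549 at an adjusted p under 0.05, 0.0132% and 0.0397%, whereas 0.0939% of all regions rose and 0.51% fell. At an unadjusted p under 0.05 there were 609 members. Counts at an unadjusted p, here and for the clones below, are given without the share of all regions. No result about the members is drawn from them. The median difference was 0.05 for members and -0.04 for all regions. All 4 mutant libraries lay above both WT libraries for 1281 members (17%, against 9.35% of all regions) and below both for 643 (8.52%, against 13.8%).

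Atxn2, which encodes an RNA-binding protein, rose. The called region is the narrower of its 2 member regions, 189 bp wide, with a fold enrichment of 5.74 and 6.55 in WT against 10.6 and 8.88 for Mut18 and 8.84 and 8.56 for Mut43. Its percentile was 31.3 and 30.9 in WT and 62.1 to 82.7 in the mutants, so the groups lay apart (score difference 1.05, SE 0.21, adjusted p = 0.0488, limma). RNA was counted per gene, so it cannot be assigned to either of the 2 regions. RNA of the gene went the other way, from 87.8 and 97.3 CPM to 71.5 to 80.8 CPM (log2 fold change -0.24, SE 0.05, adjusted p = 0.00052, edgeR), but without WT replicate 2 this was -0.15 and missed the threshold (adjusted p = 0.0662).

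Uimc1 (RAP80, a ubiquitin-binding protein of DNA repair) fell from percentiles 41 and 42.9 in WT to 10.6 and 8.38 in Mut18 and 4.86 and 6.54 in Mut43 (score difference -1.24, SE 0.19, adjusted p = 0.0233, limma). Dennd5a, an activator of Rab GTPases, went from 70.2 and 62.8 to 16.8, 7.45, 13 and 35.6 (score difference -1.4, SE 0.25, adjusted p = 0.0374), and Pmepa1, an inhibitor of TGF-beta signalling, from 15.7 and 26.8 to between 1.99 and 4.97 (score difference -1.09, SE 0.21, adjusted p = 0.0447). No mutant library reached a WT library at any of the 3. RNA of these genes differed little, with 37.9 and 37.8 CPM for Uimc1 in WT against 39.6 to 44.9 CPM, 59.7 and 59.2 against 49.2 to 53.9 CPM for Dennd5a, and 29.6 and 29.7 against 24.5 to 27.1 CPM for Pmepa1. The log2 fold changes were 0.18, -0.16 and -0.14, of which that of Pmepa1 missed the threshold (adjusted p = 0.0275, 0.0167 and 0.111, edgeR). With DESeq2 those of Uimc1 and Dennd5a missed it too (adjusted p = 0.128 and 0.133). All 4 rank calls stood close to the threshold, and between 0 and 2 of them were left when any 1 library was omitted. No call was made when peaks were ranked by -log10 q, where their adjusted p ran from 0.0758 to 0.109.

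Each clone gave fewer calls, with the same WT libraries in both comparisons. In Mut18 no member passed (516 at an unadjusted p under 0.05, limma), beside 0.00204% of all regions higher and 0.0408% lower. In Mut43 1 member was lower (478 at an unadjusted p under 0.05), beside 0.0163% of all regions higher and 0.141% lower.

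The comparison of Mut43 with Mut18 used no value that chose the members. No member and no other region passed in limma (0% called, 201 members at an unadjusted p under 0.05), and the median difference was 0.02. The lowest p was at Dpp7, a lysosomal peptidase, with percentiles of 12.5 and 18.5 in Mut18 and 59.4 and 50.4 in Mut43 (score difference 1.15, SE 0.23, adjusted p = 0.959, limma). Fam204a (85.3 and 85.8 against 98.1 and 98.5) and Impad1 (81.9 and 86 against 97.4 and 96.4) followed on the side of Mut43. On the side of Mut18 were Gbp2, an interferon-induced GTPase, with 77 and 67.4 against 31.3 and 31.4, Txndc15 with 32.2 and 41.2 against 8.46 and 13, and Celf2 with 67.6 and 59.9 against 32.7 and 28.8. None passed after adjustment. Of the members, 20 were in both Mut18 lists and neither Mut43 list, and 19 the reverse.

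RNA of the member genes changed little in size. Of 7592 genes, 92.2% stayed within 1.5-fold of WT in the mean of both clones, and the median absolute log2 fold change was 0.14, against 0.23 for all 14061 tested genes. The tested genes include those under the 10 CPM minimum of the members. The part of this minimum in the differences from all genes was not tested. At an adjusted p under 0.05 and beyond 2-fold (edgeR quasi-likelihood test), 17 member genes rose (0.224%) and 150 fell (1.98%), beside 3.26% and 5.82% of all genes tested. Requiring no fold change, 1645 rose and 2045 fell (21.7% and 26.9%, against 24.2% and 25.6% of all genes), and 14 rose and 119 fell beyond 2-fold in each clone on its own, beside 2.3% and 4.3% of all genes. A minimum set in WT keeps genes that are high in WT, and with the minimum of 10 CPM set on all 6 libraries instead 31 genes rose and 86 fell of 7472. In bulk samples, fewer cells of a type and less RNA per cell cannot be told apart.

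Among the largest rises were those of Liph, Plac8, Inpp5d and Zbtb32, at promoters whose rank overlapped between the groups or was not tested. Liph, a phospholipase, went from 18.3 and 17.6 CPM in WT to 50.4 and 52.1 CPM in Mut18 and 59.4 and 60.9 CPM in Mut43 (log2 fold change 1.67, SE 0.07, adjusted p = 2.06e-16), while its promoter was at percentiles 25.8 and 38 in WT and 36.1 to 65.1 in the mutants. Plac8 rose from 9.53 and 10.6 CPM to 27.3 to 32.4 CPM (log2 fold change 1.6, SE 0.09). Inpp5d, an inositol phosphatase, rose from 26.6 and 26.1 to 67.4 to 77.5 CPM (1.51, SE 0.06). Zbtb32, a zinc finger repressor, rose from 10.1 and 10.3 to 23.9 to 26.2 CPM (1.35, SE 0.09) and had its peak in 3 of the 4 mutant lists.

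The 5 largest falls were at Col15a1, Car3, Mgll, Calcr and Col6a2, and all 5 promoters kept a peak in all 6 lists. Calcr and Car3 stood above the 10 CPM minimum in the WT libraries only, and Col15a1, Col6a2 and Mgll in WT replicate 1 only. The choice of members by their WT level therefore favoured falls at these genes, which are given as a description. Car3, a carbonic anhydrase, had 185 CPM in WT replicate 1, 18.4 CPM in WT replicate 2 and 6.13 to 8.69 CPM in the mutants, with its promoter at percentiles 89.3 and 79.2 in WT and 78.9 to 91.8 in the mutants. Col15a1 and Col6a2, both collagens, had 20.4 and 20.5 CPM in WT replicate 1 but 0.594 and 2.51 CPM in WT replicate 2, and Mgll, a lipase, had 20.7 and 2.84 CPM. Without WT replicate 1 their log2 fold changes went from -4.39 to -0.27 (Col15a1, adjusted p = 0.769), from -2.8 to -0.61 (Col6a2, adjusted p = 0.11) and from -2.96 to -0.92 (Mgll, adjusted p = 0.019), so 1 library decides these 3. That of Car3 went from -3.8 to -1.34 and stayed past the thresholds. Calcr, the calcitonin receptor, fell evenly, from 14.6 and 12.3 CPM to 1.26 to 2.45 CPM (log2 fold change -2.91, SE 0.17, adjusted p = 1.08e-13), with its promoter at percentiles 83.4 and 83.6 in WT and 70.8 to 76 in the mutants. Leaving out WT replicate 1 left 133 falls and 20 rises among the member genes.

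**Figure D4:**
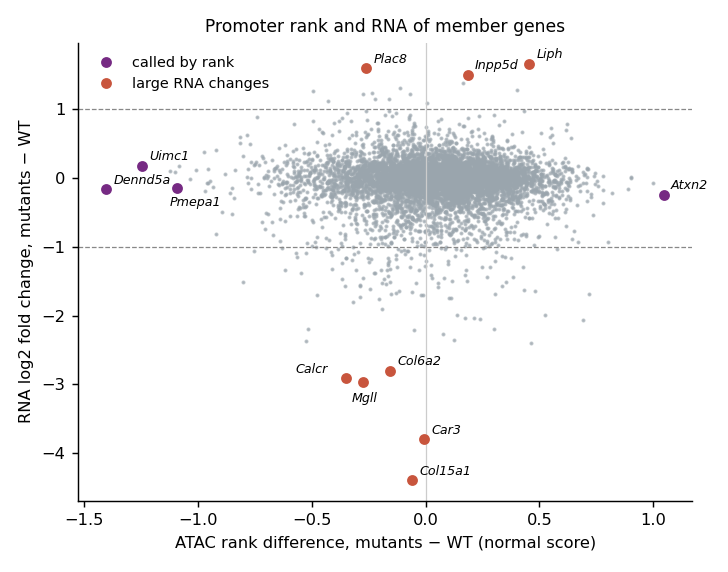
RNA log2 fold change, mutants minus WT (vertical axis), against the difference in promoter rank on the normal-score scale (horizontal axis), with 1 point for the strongest region of each of 7285 member genes and larger marks for the promoters called by rank and for 8 of the largest RNA changes. Dashed lines mark 2-fold, and Zbtb32, which has no rank, is not drawn. Promoters called by rank lie between -0.24 and 0.18 on the RNA axis, and the larger marks of RNA changes lie between -0.5 and 0.5 on the rank axis.

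Promoter rank and RNA did not move together across genes. Over 7285 genes whose strongest region had a peak in all 6 lists, Pearson's r between the rank difference and the RNA log2 fold change was 0.005 and Spearman's rho -0.02, given as a description because both share the WT lines and genes are not independent. The median RNA log2 fold change was -0.02 for the 210 genes whose promoter lost over 0.5 score units and -0.06 for the 212 that gained over 0.5.

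RNA was also described by the number of mutant lists that held the strongest region of a gene, without a test. Genes whose strongest region was in all 4 mutant lists had a median log2 fold change of -0.01 (7285 genes, 0.192% called higher and 1.78% lower), and the medians were -0.08 (128 genes, 5.47% lower), -0.13 (79 genes, 8.86%), -0.09 (55 genes, 7.27%) and -0.04 (45 genes, 4.44%) with 3, 2, 1 and 0 mutant lists, so they did not grade with the number of lists. Of the genes with 3 lists 2.34% were called higher, and none with fewer lists. There were 34 member regions, at 33 genes, that missed at least 1 mutant list and whose gene was called by RNA. Of these, 31 (91.2%) were lower, a share like that of all 167 member genes called by RNA, of which 89.8% were lower. Celf2, an RNA-binding protein of splicing, had a further region, 1063 bp wide, at percentiles 67.8 and 70.6 in WT. That region was found in 1 mutant list, at 33.7. RNA of Celf2 was 12.2 and 9.77 CPM in WT and 3.12 to 4.8 CPM in the mutants, so only WT reached a mean of 10 CPM. Serpine2, a protease inhibitor, was at 25.8 and 49.4 in WT, found in 2 mutant lists, with 23.3 and 22.5 CPM against 9.23 to 10.8 CPM. Gnai1, a G protein subunit, missed only Mut18 replicate 1 and went from 42.2 and 34.7 CPM to 15.3 to 18.1 CPM. Lpar6, a receptor for lysophosphatidic acid, was in 2 mutant lists and fell from 26.9 and 30.4 CPM to 6.33 to 8.47 CPM (log2 fold change -1.92, SE 0.09). For Lpar6, too, only WT stood above 10 CPM, so the choice by WT level favoured this fall. It is given as a description.

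Promoters of pluripotency genes were open but low in rank. The 12 core pluripotency genes with a member had 18 regions at a median WT percentile of 5.75 by fold enrichment and 50.8 by -log10 q, and 16 of the 18 were in all 4 mutant lists. Nanog had a fold enrichment of 3.75 and 3.57 in WT (percentiles 5.15 and 1.21), 4.55 and 4.64 in Mut18, and 4.43 and 4.77 in Mut43 (6.04 to 8.57), so that all mutant libraries were above WT without passing the test (score difference 0.48, SE 0.22, adjusted p = 0.372). Its RNA was 311 and 311 CPM in WT and 345 to 349 CPM in the mutants, a small rise (log2 fold change 0.2, SE 0.04, adjusted p = 6.27e-05). No promoter of the list was called by rank and none of its genes passed 2-fold, while 9 rose and 2 fell by any amount of 12 (against 24.2% and 25.6% of all genes), among them Zfp42 (0.72 up on the log2 scale) and Lin28a (-0.27). Fbxo15 ranked highest, at percentiles 72.9 and 62.7 in WT and 73.3 to 85.7 in the mutants. A Tdgf1 region ranked lowest, at 0.148 and 0.0304, and was found in both Mut18 lists and in neither Mut43 list. Pou5f1, which encodes Oct4, is absent from the members, because no region open in both WT lists lay within 500 bp of its start sites.

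Of the 14 naive pluripotency genes listed, 9 had a member, of which 8 rose and 1 fell by any amount (against 24.2% and 25.6% of all genes) and none passed 2-fold. Over all 14 genes, 1 was higher beyond 2-fold. Tbx3 came nearest, with 25.3 and 24.5 CPM in WT against 41.2 and 43.1 CPM for Mut18 and 53.5 and 55.2 CPM for Mut43 (log2 fold change 0.98). The Nr5a2 promoter, weak in WT (fold enrichment 2.95 and 3.28), had no mutant peak, although its RNA rose from 54.5 and 51 to 75.9 to 85.2 CPM. Klf4 was found in 1 mutant list, and the weaker of the 2 Esrrb regions went from percentiles 2.73 and 4.4 to 7.62 to 15.3 without passing the test (adjusted p = 0.249).

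The machinery of the mark kept its promoters. Ep300 had percentiles of 28.8 and 22.3 in WT and 33.9 to 39 in the mutants and RNA of 190 and 189 CPM in WT and 171 to 178 CPM in the mutants, a difference that missed the threshold (adjusted p = 0.0886). Crebbp had 2 regions, both in all 6 lists, and overlapping RNA of 41 and 36.6 CPM in WT and 38.8 to 41.8 CPM in the mutants. Of 13 regions at 11 acetylation writers, erasers and readers, 12 were in all 4 mutant lists, and of 12 tested none was called by rank. The exception was a region of the coactivator gene Ncoa1, which had a further member region. The edited gene H3f3a was at percentiles 36.9 and 43.4 in WT and 17.7 to 35.2 in the mutants, below WT in each library without passing the test (adjusted p = 0.446), and its RNA was 712 and 737 CPM in WT against 552 to 634 CPM. H3f3b lies on chromosome 11 and is no member. The H3.3 chaperone genes were all present, 9 of 9 regions counting H3f3a, with Asf1a at 74.5 and 85.2 in WT and 88.8 to 94 in the mutants while its RNA fell from 78.7 and 85.2 to 60.2 to 66.2 CPM (log2 fold change -0.35, adjusted p = 4.42e-06). All 5 regions of Polycomb repressive complex 2 genes were kept, and Jarid2 RNA rose from 517 and 528 to 566 to 655 CPM.

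All 39 regions at 37 genes of RNA polymerase II subunits and general initiation factors were in all 4 mutant lists. None was called by rank or beyond 2-fold by RNA, and the median RNA log2 fold change was 0.06. By any amount 10 genes rose and 2 fell, against 24.2% and 25.6% of all genes, and the count of rises is near that background. Taf10, a TFIID subunit, came closest by rank, from percentiles 92 and 92.4 to 98.2 to 99.2 (score difference 0.78, SE 0.19, adjusted p = 0.0994). Of 23 regions at 22 Mediator genes, 21 were in all 4 lists, and Med22 and Med25, weak in WT, missed 1 and 2 lists.

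Housekeeping lists differed in rank more than the lines did. Cholesterol synthesis promoters had a median WT percentile of 92.4, proteasome promoters 77.9 and mitochondrial ribosomal promoters 72.5, and 18 of 18, 26 of 27 and 69 of 70 of their regions were in all 4 mutant lists. Cytosolic ribosomal protein promoters, at a median RNA level of 774 CPM, had a median percentile of 11.1 by fold enrichment, and 52 of 58 were in all 4 lists. By -log10 q the median was 98.1 for cholesterol synthesis, 88.5 for proteasome, 82.3 for mitochondrial ribosomal and 56.3 for cytosolic ribosomal promoters. Rpl15, the highest of them, had a fold enrichment of 9.21 and 10.5 in WT and 8.79 to 10.1 in the mutants, and Rpl10a, the lowest, had 2.49 and 2.77 in WT and 3.28 in the 1 mutant list that held it, at 688 and 722 CPM in WT and 665 to 717 CPM in the mutants. Gapdh, at 5926 and 6216 CPM in WT, had a fold enrichment of 2.47 and 2.88 in WT and 2.72 to 3.47 in the mutants at the weaker of its 2 regions. None of these lists, nor the glycolysis list, had a promoter called by rank or a member gene beyond 2-fold, and without the fold requirement 26 mitochondrial ribosomal genes rose and 2 fell of 67, 8 of 26 proteasome genes rose, and 3 cytosolic ribosomal genes rose and 5 fell of 55, against 24.2% higher and 25.6% lower of all genes. The proteasome count is near that background.

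**Figure D5:**
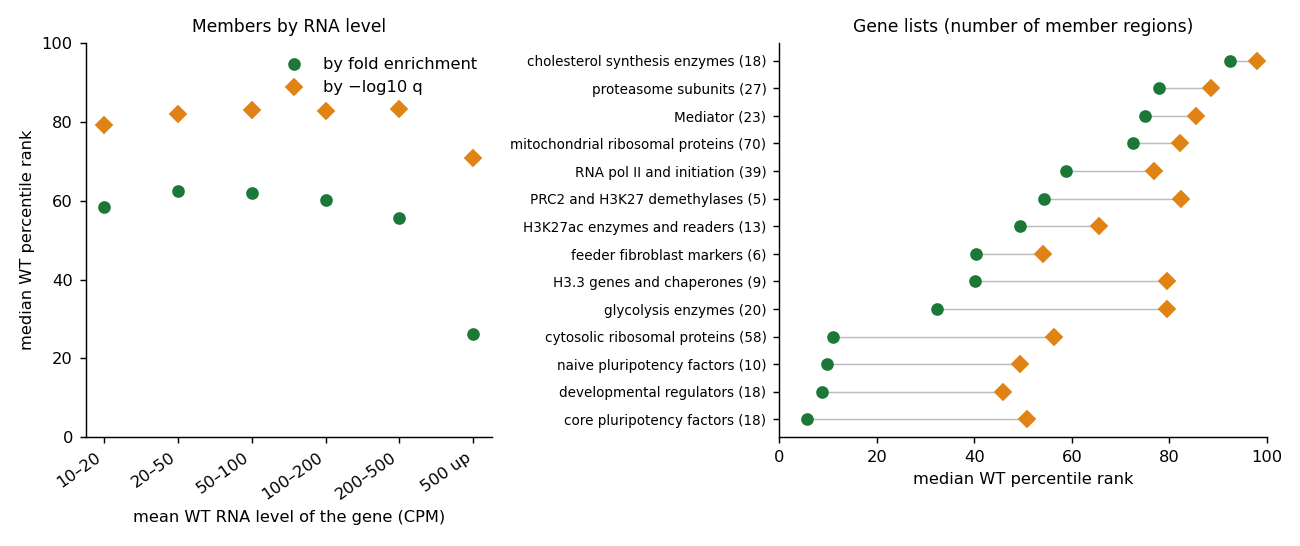
Median percentile rank in the WT lists, by fold enrichment (circles) and by -log10 q (diamonds), for members grouped by the WT RNA level of their gene in CPM (left) and for 14 gene lists with their number of member regions (right). By fold enrichment the median drops from 55.6 at 200 to 500 CPM to 26.1 at 500 CPM or more, and by -log10 q from 83.3 to 70.7.

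This low rank went with the RNA level at its upper end only. The median WT percentile was 58.4 to 62.5 in the tiers from 10 to 200 CPM, 55.6 at 200 to 500 CPM and 26.1 at 500 CPM or more, where 43.2% of regions ranked under the 20th percentile. By -log10 q the medians were 79.1 to 83.3 up to 500 CPM and 70.7 above.

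Among developmental regulators, the 12 genes with a member fell in 9 cases and rose in 1 by any amount (against 25.6% and 24.2% of all genes), with 2 beyond 2-fold, Pou3f1 (log2 fold change -1.57, SE 0.07, adjusted p = 1.99e-16) and Id2 (-1.03, SE 0.06, adjusted p = 9.63e-14). Without replicate 2 of Mut18 or of Mut43 the change of Id2 was no longer beyond 2-fold, and -0.98 at its smallest. The median was -0.29, beside 0 of the list called by rank and 16 of 18 regions in all 4 mutant lists. Of the 30 genes listed, 13 were under 10 CPM, so the minimum left out genes low in WT and favoured falls. Over the 24 list genes tested, 1 was higher and 7 lower beyond 2-fold (against 3.26% and 5.82% of all genes). The Id2 promoter, encoding an inhibitor of helix-loop-helix factors, was at percentiles 9.14 and 7.98 in WT and 16.6 to 25.1 in the mutants, above WT in each library, while its RNA was 76.4 and 77.9 CPM in WT and 31.4 to 41.8 CPM in the mutants (rank adjusted p = 0.201). Dnmt3b, a DNA methyltransferase that rises when ESCs leave the naive state, had a log2 fold change of -0.78. Of 6 feeder fibroblast markers with a member, 5 fell and 1 rose by any amount (against 25.6% and 24.2% of all genes). Their median log2 fold change was -0.61. Of these, Col5a1 passed 2-fold, at 43.7 and 33.3 CPM in WT and 15.5 to 19.3 CPM in the mutants. The Col5a1 promoter was at percentiles 65.8 and 61 in WT and 48.7 to 58.6 in the mutants. The part of feeder cells in these differences was not tested.

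In RNA each clone differed from WT at more genes than the clones differed from each other. Beyond 2-fold, 0.198% of the member genes rose and 1.61% fell in Mut18, beside 2.79% and 4.74% of all genes, and 0.29% rose and 2.62% fell in Mut43, beside 3.49% and 6.81%. With no fold requirement 1295 rose and 1734 fell in Mut18, beside 20.3% and 21% of all genes, and 1566 rose and 1897 fell in Mut43, beside 22.9% and 23.9%. Between the clones 1 member gene passed, Wdr77, the partner of the methyltransferase Prmt5, with 262 and 265 CPM in WT against 138 and 142 CPM for Mut18 and 298 and 285 CPM for Mut43 (Mut43 minus Mut18 log2 fold change 1.07, SE 0.05, adjusted p = 1.3e-14), beside 0.00711% of all genes higher and 0% lower. Its promoter had percentiles of 68.7 and 48.9 in Mut18 and 62.1 and 58.1 in Mut43, which overlapped. With no fold requirement 6 member genes were higher and 27 lower in Mut43, beside 0.064% and 0.263% of all genes. Car2, a carbonic anhydrase, had 402 and 409 CPM in WT against 111 and 110 CPM for Mut18 and 82.3 and 80.4 CPM for Mut43, while its promoter stood at percentiles 33.4 and 33.9 in WT and 55.7 to 67.8 in the mutants (rank score difference to WT 0.69, SE 0.19, adjusted p = 0.143).

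Near the expression limit, Znhit2, Rap1gap and Rnf123 were the last to be included, at 10.01 CPM each, and AW146154, Cobll1 and Fdxacb1 the last to be left out, at 9.98 CPM each. All but Rap1gap, which missed 1 list, had their region in all 4 mutant lists.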

How the data were processed

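ATAC-seq and mRNA-seq of J1 ESCs and of the clones Mut18 and Mut43 were analysed here, with 2 replicates per line and assay. The ChIP-seq libraries of the series were not used here. The submitters' processing notes name mm10, Bowtie2 2.3.4.2, SAMtools and MACS2 for ATAC-seq, and STAR, Bowtie2, SAMtools and DESeq2 for mRNA-seq, without their roles or settings. The authors deposited 1 peak list per library, whose columns hold a fold enrichment and the -log10 p and -log10 q of each peak, with a -log10 q above 6 throughout. The sequencing depth of the ATAC-seq libraries was not used here, and no interval was set on a peak's presence. The deposited RNA table holds a raw read count per gene and library, as the authors deposited it, with totals of 14992756 to 15143998.

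The peak lists were merged at 1 bp of overlap and matched to start sites of protein-coding transcripts (GENCODE vM21, GRCm38), and 15644 symbols of the count table matched directly, 469 by a synonym and 150 not. Percentile ranks within each list were turned into normal scores and tested with limma 3.58.1 over 48984 regions with a peak in all 6 lists. Counts were tested with edgeR 4.0.16 (quasi-likelihood, TMM factors) over 14061 genes that passed its filter on low counts. Both fits held all 3 lines and adjusted p by Benjamini-Hochberg over every feature tested. RNA calls also needed more than 2-fold. Single values were compared by exact permutation of libraries. The scripts ran on Python 3.11.15 and R 4.3.3 and were tested on simulated data.

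The members, the gene lists and the tests were chosen with earlier results of these data known. Genes were named by rule: up to 5 called by rank in each direction, the 5 strongest without a mutant peak, the 5 strongest in WT, up to 4 per gene list (highest, lowest, largest rise and fall in rank), the 5 largest RNA changes each way (1 of which is not reported here), up to 3 each way with the lowest p between the clones, genes the study names, the 3 on either side of the expression limit, and up to 10 that lost a mutant peak and were called by RNA. Other list genes given with RNA values, such as Zfp42, Lin28a, Pou3f1, Dnmt3b, Klf4, Ncoa1 and Med25, were chosen after their values were seen. Alternatives were other windows, expression minimums, peak limits, ranks, normalizations and DESeq2 1.42.0, and leaving out each library. A replicate number did not pair libraries of different lines, since correlations of their deviations were -0.01 to 0.03. The replicates of both assays are described as biological.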

Additional observations from a re-analysis of the deposited data

Results flagged for a closer look

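RNA of 33 member genes differed between Mut43 and Mut18 in the edgeR test of that difference (adjusted p under 0.05, any size), which is why these results deserve a closer look. Of the member genes 0.079% were higher and 0.356% lower in Mut43, near the 0.064% and 0.263% of all genes tested. Wdr77, the Prmt5 partner, was 1.07 higher in Mut43 on the log2 scale and is described above. Lars2, which encodes the mitochondrial leucyl-tRNA synthetase, was 0.32 higher in Mut43 (SE 0.05, adjusted p = 0.00333, edgeR), at 75 and 69.4 CPM in Mut18 and 90.1 and 88.5 CPM in Mut43, with WT below both at 56.6 and 54.2 CPM. Tbx3, a T-box factor of naive cells, was 0.38 higher (SE 0.07, adjusted p = 0.00694, edgeR).

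Lower in Mut43 were Car2 (log2 difference -0.43, SE 0.05), the matrix protein gene Tnc (-0.59, SE 0.07) and Cald1 (-0.37, SE 0.05), which encodes the actin-binding protein caldesmon. Tnc had 69.8 and 67.2 CPM in WT, 48.4 and 46.4 CPM in Mut18, and 30.7 and 31.5 CPM in Mut43. Cald1 had 189 and 182 CPM in WT, 120 and 116 CPM in Mut18, and 91.4 and 89.5 CPM in Mut43. For Car2, Tnc and Cald1 both clones lay below WT, and for Lars2 and Tbx3 above it. The promoters of these genes kept a peak in all 6 lists. The summed feeder fibroblast markers were also lower in Mut43 (1433 and 1483 CPM) than in Mut18 (1650 and 1717 CPM), and their part in these differences was not tested.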

How the results depend on the processing

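The share of members in all 4 mutant lists, 92.5%, was 91.1% with a window of 1000 bp, 94.3% with only the first start site of each gene, 96.5% with equal numbers of peaks per list and 74.9% when peaks had to cover 50% of a region. For regions chosen on both Mut18 or both Mut43 lists the share in the other 4 lists was 97.1% or 97.2%. Leaving out 1 library gave 87.7% to 93.7%. In the pool, the mutants minus WT went from -4.86 to 3.72 percentage points with equal numbers of peaks and to -14.5 with 50% cover, and ran from -7.34 to -2.5 without 1 library. The median member rank, mutants minus WT, went from 1.8 to -1.35 points when -log10 q was ranked and to 4.37 points with equal numbers of peaks. The cause of these changes was not tested.

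Rank calls against WT (1 higher, 3 lower in limma) became 5 lower at a minimum of 5 CPM, 0 lower with equal numbers of peaks, 1 lower at a -log10 q of 10 or more, and 0 and 0 with 50% cover or by -log10 q. They became 0 higher with first start sites, 2 higher with quantile-normalized log2 fold enrichment, and 0 higher and 22 lower when regions with a peak in 4 lists entered with an absent peak at rank 0. That last setting gave 35 calls between the clones in place of 0. It gives every absent peak of a list the same score, so presence alone can make a call. The share called over all regions is not given for it, and no result is drawn from its counts. Without 1 library there were 0 higher, 0 to 2 lower and 0 between the clones.

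RNA calls against WT (17 higher, 150 lower) became 31 and 268 at 5 CPM, 7 and 73 at 20 CPM, 31 and 86 with the minimum over all 6 libraries, and 1645 and 2045 with no fold threshold, where 33 in place of 1 differed between the clones. Without 1 library they were 17 to 20 and 133 to 165, and 1 to 2 between the clones. DESeq2 gave 17 and 148. With the replicate number as a block, although the numbers do not pair the libraries, there were 1 and 2 rank calls, 17 and 151 RNA calls, and 0 and 1 between the clones. For named genes no called value changed direction under any of these settings, and calls were lost 28 times by rank and 10 times by RNA.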

Other observations

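Of the 8 promoter regions with a peak in all 4 mutant lists and neither WT list, 4 had a mean mutant percentile above 50 and 4 ranked at 6.11 or below. This is a description and not a test, since the lists chose them. Klhdc10 had the strongest, at a mean mutant percentile of 76.7, followed by Gstz1, an enzyme of tyrosine breakdown, at 56.7, Arl14epl at 55.9 and Trak1, a mitochondrial transport adaptor, at 54.5. RNA of Arl14epl was higher in the mutants (log2 fold change 1.86, edgeR adjusted p = 2.37e-12), and so was that of Zbtb32 (1.35, edgeR adjusted p = 1.74e-12), whose region, other than its member region, ranked at 2.32. Gramd1a rose by 0.25 (edgeR adjusted p = 0.0147). The other 5 genes missed the threshold by RNA, with log2 fold changes from -0.09 (Ier2, an immediate early gene) to 0.12 (Trak1).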
